A study of Mus musculus with 18 samples.

Results

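The oculomotor nucleus is the midbrain group of motor neurons that drives most of the muscles of the eye. Its neurons are largely spared in amyotrophic lateral sclerosis (ALS), a disease in which the motor neurons of the spinal cord and cortex die, and eye movements therefore outlast limb movements in most patients. Mouse models of ALS pass through weeks without overt weakness, and a comparison of mutant with control tissue can show what differs in a spared motor region. The comparison described here is that of oculomotor nucleus from mutant mice with oculomotor nucleus from control mice, both 10 weeks old. The stage of disease of these mutants was not tested.

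The members are the 6 arrays whose labels give these groups, 3 mutant and 3 control, out of 18 arrays in the series. All 22690 probe sets of the Affymetrix Mouse Expression Set 430A, less 64 control probe sets, were considered, and none was chosen by its values. The labels describe every array only as from an ALS model. They name no mutation, transgene, promoter or strain, give neither the sex nor the number of animals per array, and do not say what the control mice carry. The sex-linked gene Xist read 496 on control oculomotor array 3 and 124 to 161 on the other oculomotor arrays of 10 weeks. On control cord arrays 2 and 3 it read 153 and 561. Uty, Kdm5d and Eif2s3y, also sex-linked, read 201, 208 and 128 on control oculomotor array 3, against 245 to 325, 159 to 248 and 120 to 150 on the others. The other 12 arrays are oculomotor nucleus of mutants at 6 weeks and cervical spinal cord of mutants at 6 weeks, controls at 10 weeks and mutants at 10 weeks, with 3 arrays each. No control of 6 weeks is among them. The submitters call the replicates independent, without saying that each came from its own animals, and a p-value here reflects the scatter of these samples, which may be partly technical.

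Each value is an intensity that summarises 1 probe set, a group of short probes against one stretch of a transcript, on a scale where the trimmed mean of an array is close to 500. Changes are log2 fold changes of signal plus 25, mutant minus control, with their standard error (SE), and n is 3 arrays per group. A probe set is called where limma's p-value, adjusted by the Benjamini-Hochberg method over the 13575 probe sets tested, lay under 0.05. Control spinal cord replicate 1 was left out of the fit, because its correlation with the other arrays was at most 0.0143, while the remaining 17 arrays correlated between 0.957 and 0.985.

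Oculomotor identity was read from markers. Genes of cholinergic neurons were present at modest signals in this dissected tissue. The vesicular acetylcholine transporter Slc18a3 read 264, 292 and 285 on the control arrays and 318, 389 and 354 on the mutant arrays, and did not pass the test (0.31 ± 0.13 (SE), adjusted p = 0.242). The neighbouring cell groups were also in the samples. Tyrosine hydroxylase, Th, the marker of dopamine neurons, read 1256, 1243 and 1247 in controls and 1126, 1220 and 1555 in mutants. Slc6a4, the serotonin transporter, lay between 1161 and 2640 on the 6 arrays. The patterning gene Hoxc8, which marks the cord, read at most 47.8 in the oculomotor arrays and at least 1315 in the cord arrays of 10 weeks. Phox2a, a transcription factor that oculomotor neurons need to form, fell below the signal filter and read 33.4 to 62.6 on the 6 arrays, and Isl1, another motor neuron factor, did not pass the filter either. None of 11 tested cholinergic and motor neuron genes was called, and in bulk tissue fewer cells of a type and less RNA per cell cannot be told apart.

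Signals of pituitary hormones were high on 2 of the 6 arrays. Growth hormone, Gh, read 428, 773 and 2934 on control arrays 1 to 3 and 120.5, 13207 and 332 on mutant arrays 1 to 3. Prolactin, Prl, which fell below the signal filter, read 3008 on control array 3 and 2209 on mutant array 2, against at most 166.5 on the other oculomotor arrays of 10 weeks. The subunit Cga read 1134 on mutant array 2. Pomc, a further pituitary gene, read 6756 there, 260 on control array 3 and between 183 and 382 on the remaining oculomotor arrays of 10 weeks. Both groups held an array with high Gh and Prl, but Gh and Pomc were far higher on mutant array 2 than on control array 3. Gh did not pass the test (-0.21 ± 1.18 (SE), adjusted p = 0.962). Of 10 pituitary genes on the array 3 passed the filter, and Chgb, a granin also made by neurons, was called (0.41 ± 0.086 (SE), adjusted p = 0.02; 0.187 without control array 3 and mutant array 2). Calls described below are therefore also given without control array 3 and mutant array 2, and where a second adjusted p follows a semicolon, it comes from that fit.

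Of the 13575 probe sets tested, 200 were called (1.47%), of which 141 were higher in mutants (1.04%) and 59 lower (0.435%). Only 30 of them changed by at least 2-fold, 28 upward and 2 downward, the latter being Tac2 and Lrrtm1. The called probe sets with a single gene symbol belonged to 154 genes, and 33 had several symbols or none. All 200 called probe sets had mutant arrays that did not overlap the control arrays, as did 24% of all probe sets tested (11.7% with mutants higher and 12.3% with mutants lower). The median change over all tested probe sets was -0.0081. Without the 2 arrays with high pituitary signals, 57 probe sets were called, 45 higher and 12 lower, and 50 of these were among the 200. Leaving out a single array also lowered the count, to 47, 108 and 92 without mutant array 1, 2 or 3 and to 55, 91 and 103 without control array 1, 2 or 3.

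Malat1 changed most. Malat1 is a long noncoding RNA that stays in the nucleus, gathers at the speckles where splicing factors are stored, and is among the most abundant RNAs of neurons. Its probe set 1438403_s_at read 120.5, 269 and 222 on the control arrays and 8433, 4132 and 4561 on the mutant arrays. Every mutant array lay far above every control array, by 24.8-fold on average (4.63 ± 0.47 (SE), adjusted p = 0.000105). The change was 4.91 without the 2 arrays with high pituitary signals (adjusted p = 0.00293), and of the 60 called probe sets named by rule it was the only one whose call held under all 23 alternatives tried.

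The other Malat1 probe sets rose less. Probe set 1418188_a_at read 316, 391 and 309 in controls and 2020.2, 1504 and 1671 in mutants (2.27 ± 0.33 (SE), adjusted p = 0.00246; 0.0193 without the 2 arrays). For 1418189_s_at the signals were 591, 978 and 515 against 3590.5, 2116 and 2818 (2.01 ± 0.37 (SE), adjusted p = 0.00995; 0.0633). The last 2, 1452378_at and 1427285_s_at, changed by 0.53 and 0.37 and were not called (adjusted p = 0.141 and 0.375). The control arrays read between 120.5 and 978 over the 5 probe sets, and all 5 had separated groups, so the direction was shared while the size ran from 1.29-fold to 24.8-fold. Mutants of 6 weeks, set beside these without a control of their own age, read 3888, 8113 and 6733 for 1438403_s_at.

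**Figure D1:**
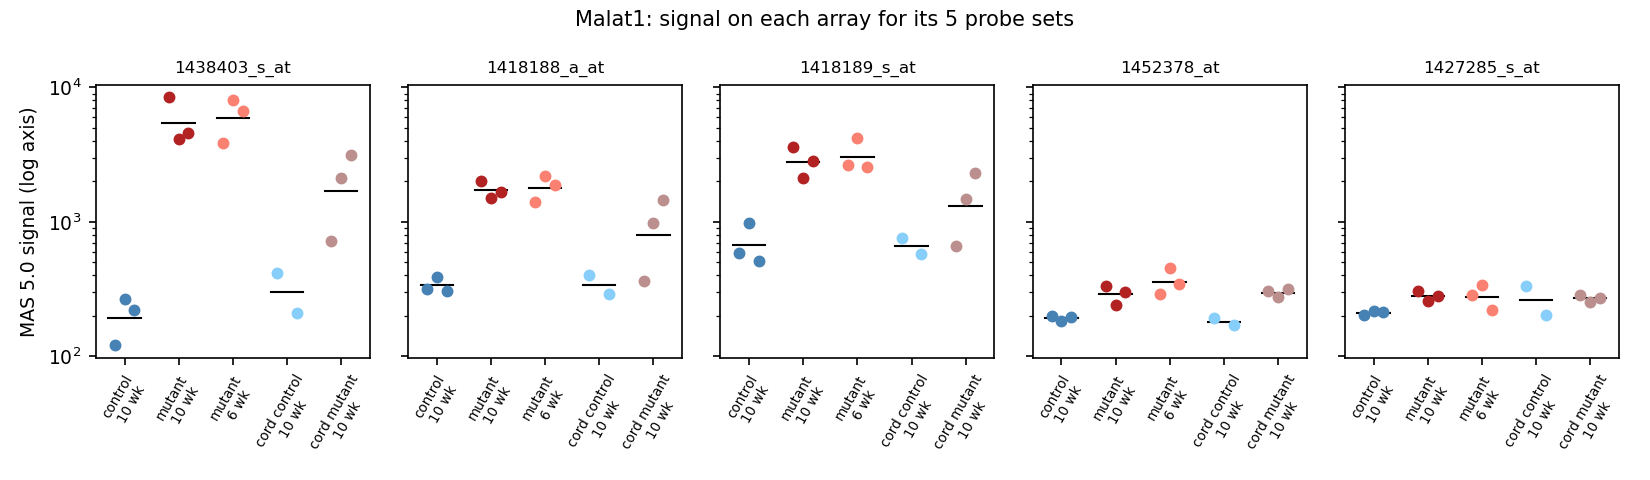
Signal of each Malat1 probe set (one panel each) on every array, on a log axis in units of MAS 5.0 signal, with a line at each group's mean of log2(signal + 25). "Cord" marks cervical spinal cord. In 1438403_s_at the control oculomotor arrays lie between 120.5 and 269 and the 10-week mutants between 4132 and 8433, while in the 2 panels on the right the groups differ by much less.

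Of 52 tested probe sets of long noncoding RNAs 6 were called (11.5%), all higher in mutants, beside 1.04% called higher over all probe sets tested. They belonged to 3 genes, with 3 of Malat1, 2 of Rian and 1 of Norad. After quantile normalization 4 were called, 3 of Malat1 and 1 of Rian, and without the 2 arrays with high pituitary signals 2 were, both of Malat1. Rian is a maternally expressed noncoding RNA of the imprinted Dlk1-Dio3 cluster. Its probe set 1428055_at read 344, 318 and 318 in controls and 782, 560.4 and 629 in mutants (0.94 ± 0.20 (SE), adjusted p = 0.0246; 0.108 without the 2 arrays). A further Rian probe set, 1427580_a_at, was called (0.83 ± 0.21 (SE), adjusted p = 0.0489; 0.0601), and 1452899_at was not (1.15 ± 0.36 (SE), adjusted p = 0.118). Control array 2 read 375 there and the other control arrays 1433 and 1700.2. Meg3, its neighbour in the cluster, was measured by 5 probe sets with changes between 0.12 and 0.61, none called. Norad, which binds Pumilio proteins in the cytoplasm, was 0.37 ± 0.087 (SE) higher in 1428286_at (adjusted p = 0.0421; 0.135) and -0.41 in 1432646_a_at, which was not called.

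Proteins of the splicing speckle, the nuclear body where Malat1 gathers, held 1 called gene. That was 1 of 23 tested members of the list, beside 1.03% called over all 8072 genes tested, each by its brightest probe set. The same 1.03% stands beside the calls in every gene list here. The median change of the speckle list was -0.0033, against 0.00044 over all genes. The called member was Rbm25, an RNA-binding splicing factor, which read 496, 518 and 562 in controls and 1007, 844 and 922 in mutants (0.79 ± 0.16 (SE), adjusted p = 0.016; 0.0633 without the 2 arrays). Both other tested Rbm25 probe sets had the opposite sign, at -0.43 and -0.48, and were not called. Of 5 Rbm25 probe sets on the array, only 3 passed the signal filter.

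Cbl was among the few genes for which every tested probe set was called. Cbl is a ubiquitin ligase that marks activated receptor tyrosine kinases for removal from the cell surface. Probe set 1455886_at read 168, 172 and 161 in controls and 491, 387 and 424 in mutants (1.25 ± 0.15 (SE), adjusted p = 0.000632). Its other probe set, 1450457_at, read 79.1, 104 and 78.0 against 232, 178 and 177 (0.98 ± 0.20 (SE), adjusted p = 0.0162). Control arrays were tightly grouped and no mutant array came near them in either probe set. Without the 2 arrays with high pituitary signals the first was called (1.30, adjusted p = 0.00606) and the second was not (0.98, adjusted p = 0.111). Of 19 tested ligases and partners of Cbl no other was called, and the median of that list was -0.054.

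Commd1 rose to a similar extent. Commd1 takes part in copper export and in the ending of NF-kappaB signalling. Its probe set 1424122_s_at read 457, 309 and 404 in controls and 739, 1191 and 928 in mutants (1.23 ± 0.18 (SE), adjusted p = 0.00237; 1.09 and adjusted p = 0.0225 without the 2 arrays). A further Commd1 probe set, 1424121_at, fell below the signal filter and read 114.8, 113.8 and 145 in controls and 77.7, 121.7 and 116 in mutants, so that its groups overlapped. Among 23 tested genes of copper handling and the COMMD family no other was called.

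Map1b, Kif5c and Akap9 were among the 15 largest rises. Map1b, a microtubule-associated protein of growing axons, read 342, 324 and 550.5 in controls and 1495, 1085 and 1276 in mutants in 1450397_at (1.63 ± 0.27 (SE), adjusted p = 0.00508; 0.00967 without the 2 arrays). Kif5c, a heavy chain of the kinesin motor that carries cargo along axons, read 491, 655 and 633 against 1450, 1292 and 1437 (1.21 ± 0.16 (SE), adjusted p = 0.000863; 0.00606). Akap9, a scaffold for protein kinase A at the centrosome and Golgi, read 84.3, 125 and 90.5 against 327, 270.1 and 301 (1.39 ± 0.21 (SE), adjusted p = 0.00262; 0.0242). In all 3 every mutant array lay above every control array. Akap9 had 1 tested probe set of 2 on the array, while Map1b and Kif5c each had a further probe set of the opposite sign. Map1b 1421850_at changed by -0.28 and Kif5c 1450804_at by -0.37, neither called, and Map1b 1421851_at by 0.38, also not called.

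In Ank3 all 3 probe sets had the same sign. It encodes ankyrin-G, which anchors sodium channels at the axon initial segment. Its 3 probe sets changed by 1.13, 0.65 and 0.56, with adjusted p of 0.0117, 0.027 and 0.143. The first 2 were called, and neither was without the 2 arrays (adjusted p = 0.0633 and 0.118). Represented by the brightest probe set of each gene, 1 of 20 tested cytoskeletal scaffolds was called and 10 had separated groups with mutants higher. Over all 8072 genes, represented in the same way, 1.03% were called and 912 had separated groups with mutants higher. The median of the list was 0.17, and it was 0.13 after quantile normalization.

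Wnk1, Ap2b1 and Gnas each had a called probe set that rose by more than 2-fold. Wnk1, a kinase that sets the activity of chloride cotransporters, read 249.7, 340 and 297 in controls and 1223, 623 and 682 in mutants in 1436746_at (1.38 ± 0.24 (SE), adjusted p = 0.0058; 0.0193 without the 2 arrays). Its brighter probe set 1433676_at changed by -0.048 and was not called (SE 0.097, adjusted p = 0.874). Ap2b1, a subunit of the clathrin adaptor AP-2, read 839, 780.3 and 904 against 1811, 1852 and 1820.4 (1.10 ± 0.21 (SE), adjusted p = 0.0116), and was no longer called without the 2 arrays (adjusted p = 0.0787). Gnas encodes the stimulatory G protein alpha subunit. Gnas 1453413_at read 162, 130.3 and 155 against 340.4, 307 and 376 (1.07 ± 0.14 (SE), adjusted p = 0.000795; 0.00606), and the much brighter 1450186_s_at changed by 0.43 (adjusted p = 0.0923). Mutants of 6 weeks read 177, 211 and 207 in 1453413_at, between the 10-week groups.

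Max, Kdm5a, Ubxn2a and Pdap1 were also higher by 2-fold or more in a called probe set. Max, the obligate partner of Myc, read 129, 72.8 and 167 in controls and 442, 409 and 348 in mutants (1.57 ± 0.33 (SE), adjusted p = 0.0226; 0.0787 without the 2 arrays). Kdm5a, a histone demethylase, read 105, 86.6 and 124 against 280.4, 204 and 243 (1.04 ± 0.23 (SE), adjusted p = 0.0253; 0.0662). Both thus lost their call without the 2 arrays, although the size was kept at 1.76 and 1.25. Ubxn2a, a cofactor of the ATPase p97, read 292, 375 and 178 against 1054, 665 and 796 in 1425019_at (1.52 ± 0.24 (SE), adjusted p = 0.00325; 0.0185). Its brighter probe set 1425020_at read 2183, 2073 and 2412 against 2181, 2227 and 2215 and did not differ beyond its error (-0.0069 ± 0.10 (SE)). Pdap1 showed the same split, with 1.08 in 1434020_at (adjusted p = 0.0058; 0.00606) and -0.13 in 1434019_at (adjusted p = 0.543).

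The glycine receptor subunit Glra1 rose. Glra1 forms the adult glycine receptor of brainstem and cord. It read 94.6, 72.6 and 159 in controls and 292, 226 and 268 in mutants (1.15 ± 0.24 (SE), adjusted p = 0.02; 0.0185 without the 2 arrays). Among 13 tested GABA and glycine genes no other was called. Of 20 tested voltage-gated channels 2 were called by their brightest probe set, beside 1.03% of all 8072 genes. Both were potassium channels of fast-firing neurons and both were higher. Kcna1 read 1341, 1594 and 1660.5 against 3114, 1972 and 2257 (0.65 ± 0.13 (SE), adjusted p = 0.02, and 0.0185 without the 2 arrays). Kcnc1 changed by 0.77 ± 0.18 (SE) (adjusted p = 0.0443, and 0.126 without the 2 arrays). Of these 2, only Kcna1 was called without the 2 arrays. The calcium channel subunit Cacnb4 was also called higher, by 0.77 in its dimmer probe set 1452089_at. That probe set stayed called without the 2 arrays (adjusted p = 0.0413), and the brighter Cacnb4 probe set changed by -0.019. The median of the channel list was -0.02, close to that of all genes.

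Presynaptic genes held calls in both directions. The complexins Cplx1 and Cplx2, which clamp vesicle fusion, were called by their brightest probe set. They were 2 of 22 tested synaptic vesicle genes, beside 1.03% called over all 8072 genes. Cplx2 read 1285, 993 and 1148 in controls and 1997, 1937 and 1754 in mutants (0.72 ± 0.11 (SE), adjusted p = 0.00328; 0.0413 without the 2 arrays). Cplx1 changed by 0.58 ± 0.12 (SE) in its brightest probe set (adjusted p = 0.0212, and 0.108 without the 2 arrays), and 1417747_at by -0.07, not called. After quantile normalization the brightest Cplx1 probe set changed by 0.37 and was not called (adjusted p = 0.107). Nsf, the ATPase that takes SNARE complexes apart, was lower in 1422455_s_at (-0.58 ± 0.13 (SE), adjusted p = 0.0326; 0.261), while its brighter probe set 1422456_at changed by -0.015.

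Tac2 fell most. Tac2 encodes the precursor of neurokinin B, a tachykinin neuropeptide. Its only tested probe set read 534, 472 and 183 in controls and 93.2, 119 and 58.1 in mutants. Control array 3, one of the arrays with high pituitary signals, was the lowest control, and the groups did not overlap. The mean fell 3.45-fold (-1.78 ± 0.33 (SE), adjusted p = 0.0104), and the change was -2.41 without the 2 arrays (adjusted p = 0.00293). The call was lost when mutant array 3, control array 1 or control array 2 was left out, with adjusted p of 0.0532, 0.0663 and 0.0517. Among the other 17 tested neuropeptide and tachykinin receptor genes none was called.

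Lrrtm1 had the next largest fall. It is a leucine-rich repeat protein of the postsynaptic membrane that binds neurexins. Probe set 1452624_at read 452, 455 and 335 in controls and 183, 181 and 184 in mutants (-1.07 ± 0.19 (SE), adjusted p = 0.00734; -1.20 and adjusted p = 0.0264 without the 2 arrays). The mutant arrays were nearly equal and well below the lowest control. The other tested probe set, 1455883_a_at, had the same sign and was not called (-0.53 ± 0.19 (SE), adjusted p = 0.181). Of 3 Lrrtm1 probe sets on the array, only these 2 passed the signal filter. Of 11 tested synapse organisers no other was called by its brightest probe set, and the median of the list was -0.092.

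Cdk5r1, Ptprs, Cntnap1 and Nell2 were also lower in a called probe set. Cdk5r1 encodes p35, the activator of the kinase Cdk5 in neurons. Probe set 1433450_at read 1083, 1131 and 1245 in controls and 633, 599.9 and 592 in mutants (-0.89 ± 0.12 (SE), adjusted p = 0.002; 0.0262 without the 2 arrays). Its other 3 probe sets changed by -0.84, -0.65 and -0.24, none called. Ptprs, a receptor phosphatase that binds proteoglycans, read 717, 1039 and 854 against 438, 436 and 548 (-0.83 ± 0.17 (SE), adjusted p = 0.0167; 0.148). Cntnap1, a protein of the paranodal junction between axon and myelin, changed by -0.74 ± 0.17 (SE) (adjusted p = 0.0374; 0.289). Nell2, a secreted protein of neurons, changed by -0.84 ± 0.15 (SE) (adjusted p = 0.00723; 0.111). The last 3 were no longer called without the 2 arrays.

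Igfbp5 and Sel1l fell as well. Igfbp5, which binds insulin-like growth factors, read 649, 601 and 549.7 in controls and 329.7, 267 and 338 in mutants in 1422313_a_at (-0.90 ± 0.15 (SE), adjusted p = 0.00508; 0.0492 without the 2 arrays), and its brighter probe set changed by -0.22. Sel1l, the adaptor of the ubiquitin ligase that clears misfolded proteins from the endoplasmic reticulum, read 1444, 1680.3 and 1174 against 761, 803 and 827 (-0.81 ± 0.14 (SE), adjusted p = 0.0079; 0.0185). All 3 other Sel1l probe sets had the same sign without a call, at -0.59, -0.30 and -0.16. Gm13889 changed by -0.91 ± 0.19 (SE) (adjusted p = 0.0235; 0.00293). Weaker calls were those of Ociad1 (-0.92, adjusted p = 0.0474), the Wnt inhibitor Apcdd1 (-0.81, 0.048), the vesicle GTPase Rab10 (-0.76, 0.0489) and the protease calpain 1, Capn1 (-0.74, 0.0347). None of those 4 was called without the 2 arrays.

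Tcf7l2 fell in the 10-week mutants. It is a Wnt effector that is strongly expressed in thalamus and parts of the midbrain next to the oculomotor nucleus. It read 648, 609.5 and 454 in controls and 394, 327 and 269.5 in mutants (-0.74 ± 0.18 (SE), adjusted p = 0.048), and 689, 527 and 672 in mutants of 6 weeks. It was not called without the 2 arrays (adjusted p = 0.103) or after quantile normalization (adjusted p = 0.0592). Only 1 of the 4 Tcf7l2 probe sets on the array passed the signal filter. Of 6 tested genes of neighbouring midbrain and thalamic cell groups Tcf7l2 was the only one called, beside 1.03% called over all 8072 genes. The highest change among the 6 was -0.026, and their median was -0.09, against 0.00044 over all genes. The part of dissection in the fall of Tcf7l2 was not tested.

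**Figure D2:**
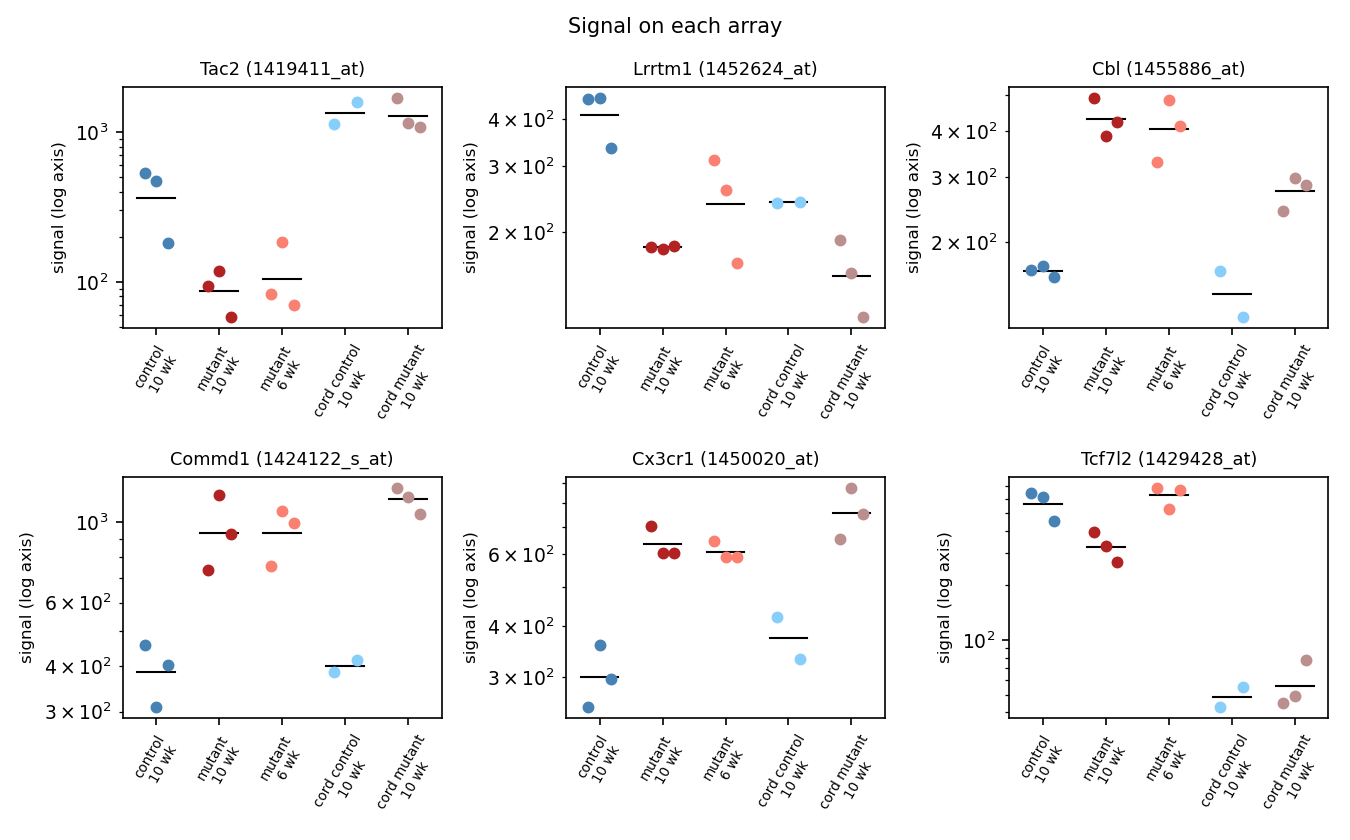
Signal on each array (log axis, MAS 5.0 units) for 6 probe sets, with a line at each group's mean of log2(signal + 25). In Cbl, Commd1 and Cx3cr1 the mutants of both ages lie above the control arrays, in Tac2 and Lrrtm1 the 10-week mutants lie below them, and in Tcf7l2 the 6-week mutants read 527 to 689 against 270 to 394 at 10 weeks.

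Probe sets of the same gene often differed in whether they were called, and less often in sign. Of the 154 genes with a called probe set, 40 had a single tested probe set and 114 had several, which gave 210 further probe sets. Of those, 11 were called in the same direction (5.24%), 2 were called in the opposite direction, 125 had the same sign without a call, and 72 had the opposite sign without a call. Over all 13575 probe sets tested, 1.04% were called higher and 0.435% lower. The leading probe set of a gene was its called one with the largest change. The median change of the further probe sets was 0.076 for genes led by a rise and -0.18 for genes led by a fall. In the leading probe sets it was 0.66 and -0.59, a gap in size that follows in part from how they were chosen. In 74 of the 114 genes the leading probe set was not the brightest of its gene. Only Cbl, Actb and Ndrg4 had several tested probe sets that were all called in 1 direction. Counted with the brightest probe set of each gene alone and adjusted over these, 62 genes were called.

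Pja2 had called probe sets in both directions. It is a ubiquitin ligase that degrades regulatory subunits of protein kinase A. Its probe set 1424442_a_at rose, from 3403, 3641 and 3440.3 in controls to 6379, 5559 and 5817 in mutants (0.75 ± 0.11 (SE), adjusted p = 0.002). Probe sets 1452328_s_at and 1427148_at fell, the first from 1563, 1575 and 1853 to 875, 843 and 931 (-0.89 ± 0.14 (SE), adjusted p = 0.00335) and the second from 1152, 1154 and 1320.4 to 783, 695 and 767 (-0.67 ± 0.13 (SE), adjusted p = 0.0116). No arrays overlapped in any of the 3. Without the 2 arrays the rise was called (adjusted p = 0.0181) and neither fall was (adjusted p = 0.0643 and 0.171). The spinal cord, on separate arrays, showed the same signs at 0.81, -0.34 and -0.65. Ptp4a2, a membrane-bound phosphatase, was the other gene called both ways, at 0.58 in 1420613_at and -0.45 in 1420612_s_at (adjusted p = 0.0299 and 0.0492), and neither was called without the 2 arrays (adjusted p = 0.187 and 0.337). The other 2 Ptp4a2 probe sets were not called.

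**Figure D3:**
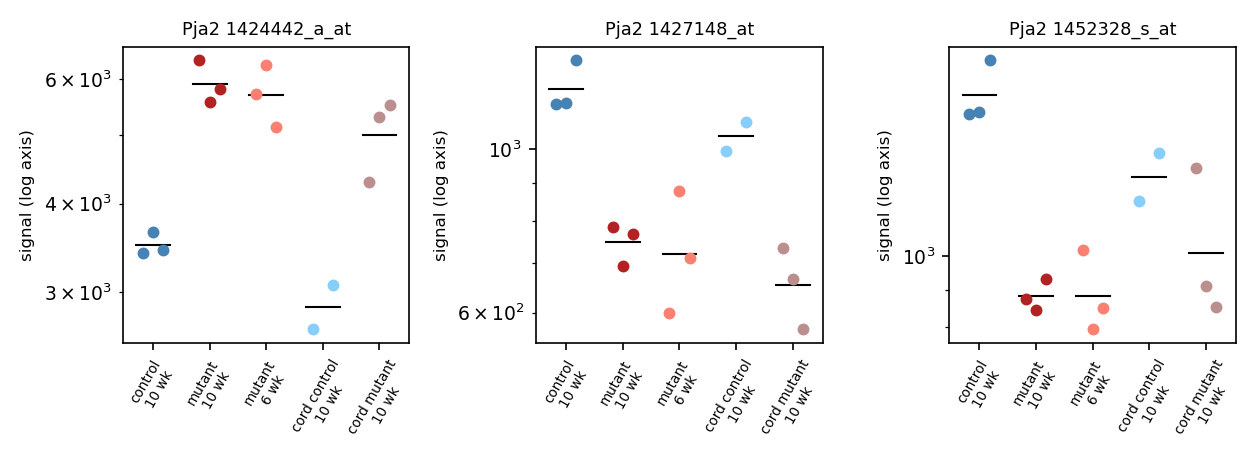
Signal of the 3 Pja2 probe sets on each array (log axis, MAS 5.0 units), with a line at each group's mean of log2(signal + 25). The left panel is higher in mutants, at 5559 to 6379 against 3403 to 3641 in control oculomotor nucleus, and the other 2 are lower.

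RNA quality was read from control probe sets at both ends of 4 transcripts. The ratio of 3' to 5' signal for Gapdh was 0.786, 0.771 and 0.741 on control arrays and 0.832, 0.786 and 0.814 on mutant arrays. An exact two-sided permutation test gave p = 0.2, where 3 against 3 arrays cannot go below 0.1. The same exact test gave p = 0.9 for Actb, 0.5 for Pcx and 1 for Tfrc. The part of RNA quality in the disagreement between probe sets was not tested.

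**Figure D4:**
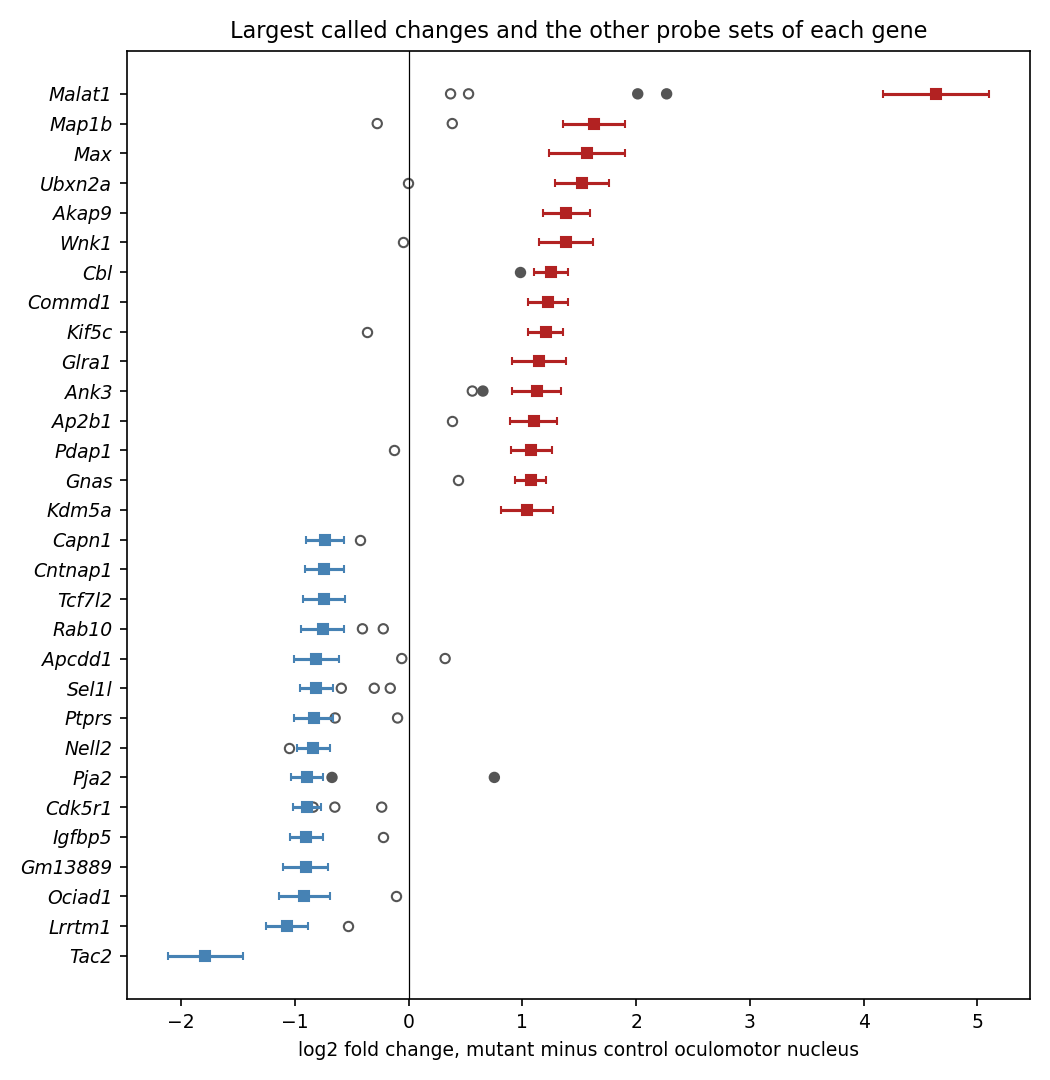
Log2 fold change, mutant minus control oculomotor nucleus, for the 15 largest rises and 15 largest falls among called genes (squares with SE bars, n = 3 arrays per group) and for the other tested probe sets of each gene (circles, filled where called). The circles of Ubxn2a, Wnk1 and Pdap1 lie near 0, and Pja2 has a filled circle at 0.75 opposite its square at -0.89.

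The serotonin list held 1 called rise. Slc6a4, the transporter that takes serotonin back into raphe neurons, read 1391, 1161 and 1198 in controls and 2098, 2640.1 and 1986 in mutants (0.82 ± 0.17 (SE), adjusted p = 0.0212). Of 5 tested serotonin neuron genes it was the only one called, 4 had separated groups with mutants higher, and the median was 0.50. Over all 8072 genes these were 1.03% called, 912 separated with mutants higher and a median of 0.00044. Ddc, the decarboxylase shared with dopamine neurons, changed by 0.50 ± 0.15 (SE) (adjusted p = 0.106). After quantile normalization 2 of the 5 serotonin neuron genes were called higher. Without the 2 arrays none was, and Slc6a4 had an adjusted p of 0.258. Mutants of 6 weeks read 975, 710.4 and 1103 for Slc6a4, below the control arrays. The raphe lies next to the oculomotor nucleus, and the part of dissection was not tested. The 9 tested dopamine neuron genes held no called member and had a median of -0.049.

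Among microglial genes Cx3cr1 was the only one called. It is the fractalkine receptor of microglia, and 1 of its 2 probe sets on the array passed the signal filter. It read 254, 360.4 and 298 in controls and 706, 605 and 606 in mutants (1.02 ± 0.16 (SE), adjusted p = 0.00327; 0.0283 without the 2 arrays). None of the other 17 tested microglia and macrophage genes was called, the median was 0.083, and the colony-stimulating factor receptor Csf1r changed by 0.11 in its brightest probe set. None of 10 reactive astrocyte genes was called, and their median was -0.042. Of 19 tested general astrocyte genes Aldoc was called by its brightest probe set (0.43, adjusted p = 0.0226) and Slc4a4 by a dimmer one (0.71, adjusted p = 0.0212). Neither was called without the 2 arrays (adjusted p = 0.232 and 0.0664), and Aldoc was not called after quantile normalization (adjusted p = 0.505). Over all 8072 genes, by their brightest probe sets, 1.03% were called. No member was called among 15 endothelial, 8 pericyte, 16 meningeal or 2 blood cell genes.

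The brightest probe sets lay apart between the groups. The 99.9th percentile of signal was 10092, 10594 and 10477 on control arrays and 13349, 13625 and 13127 on mutant arrays, a difference of 0.36 in log2 (exact two-sided permutation p = 0.1, the smallest possible). Of the 100 brightest probe sets, 83 had separated groups with mutants higher and 0 with mutants lower, 19 were called, and the median change was 0.33. After quantile normalization, which forces 1 distribution on every array, that median was 0.016 and none of the 19 was still called. After cyclic loess, chosen after seeing the data, the median was 0.15. The part of array scaling in the rises of bright genes was not tested.

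Several calls sat at that bright end, and none of those of Actb, Ndrg4, Mbp, Cnp, Rpl4 or the dimmer Rpl27a held without the 2 arrays with high pituitary signals (adjusted p from 0.0617 to 0.269). Actb, cytoplasmic actin, read 10969, 13199 and 11613 in controls and 18402, 18501 and 16941 in mutants in 1436722_a_at (0.59 ± 0.13 (SE), adjusted p = 0.023), and its change was 0.11 after quantile normalization (adjusted p = 0.486). The dimmer Actb probe set 1419734_at changed by 0.73 ± 0.16 (SE) and by 0.76 after quantile normalization. Ndrg4, a cytoplasmic protein of neurons, changed by 0.50 and 0.46 in its 2 probe sets, and by 0.12 and 0.21 after quantile normalization, where neither was called. Mbp, a main protein of myelin, changed by 0.45 in 1433532_a_at, a call that was lost after quantile normalization, where the change was -0.0076. The dimmer Mbp probe set 1425263_a_at changed by 0.69 ± 0.17 (SE) (adjusted p = 0.0487; 0.11) and by 0.71 after quantile normalization (adjusted p = 0.045). Of 20 tested oligodendrocyte genes only Cnp was called by its brightest probe set, and none was after quantile normalization.

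Of 39 tested cytosolic ribosomal protein genes, 20 had separated groups with mutants higher, none with mutants lower, and 2 were called, the dim Rpl27a at 0.91 and the bright Rpl4 at 0.35. After quantile normalization Rpl27a was called (adjusted p = 0.0172) and Rpl4 was not (adjusted p = 0.202). Over all 8072 genes, 1.03% were called and 912 were separated with mutants higher. The list's median of 0.19 became 0.066 after quantile normalization. Of 66 tested genes of the respiratory chain and ATP synthase, Uqcrfs1 alone was called (0.54 ± 0.13 (SE), adjusted p = 0.0425; 0.253), and the median of 0.068 became -0.014 after quantile normalization.

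**Figure D5:**
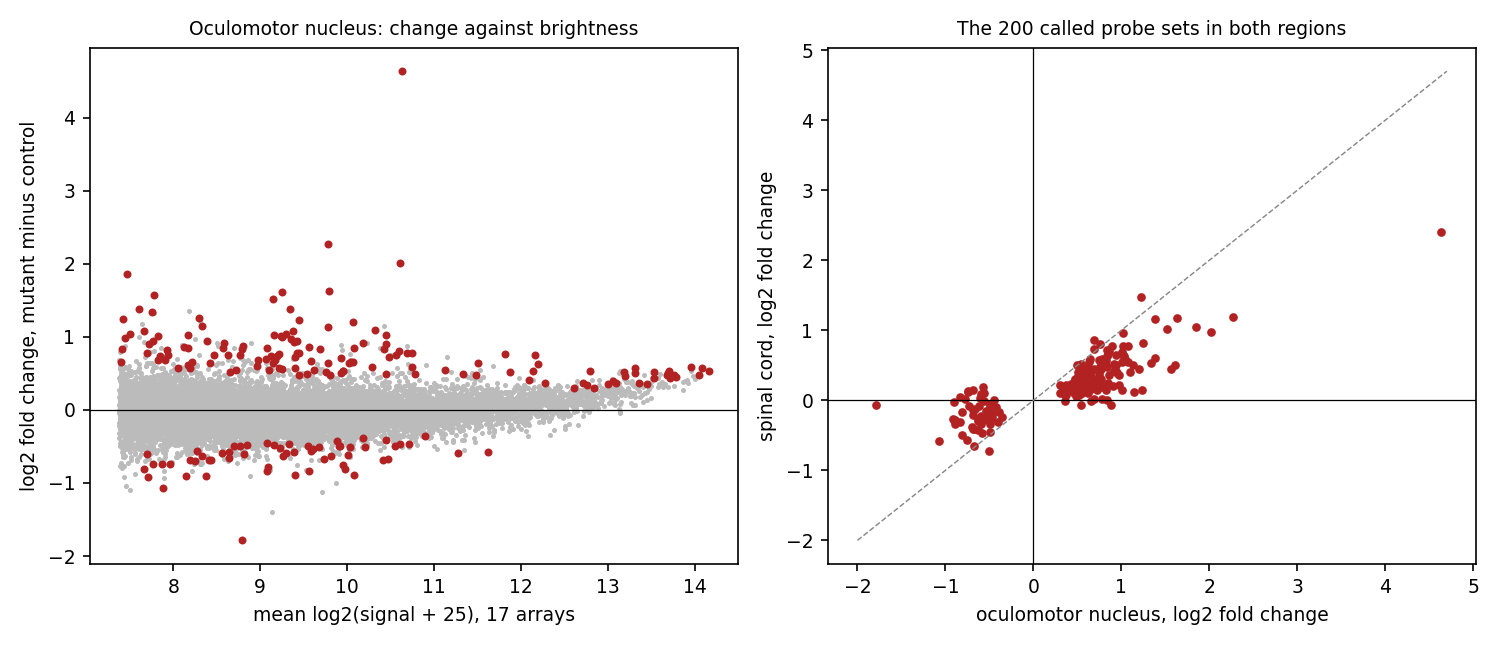
Left, log2 fold change in oculomotor nucleus against mean log2(signal + 25) over 17 arrays, 1 point per tested probe set, with called ones in red. The right-hand end of the cloud lies above 0. Right, the 200 called probe sets with their change in oculomotor nucleus (x axis) and spinal cord (y axis), where 186 have the same sign and most lie nearer to 0 in spinal cord than the dashed line of equality.

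Calls among genes tied to ALS, and in the lists that follow, stand beside 1.03% called over all 8072 genes. Sod1, superoxide dismutase and a common site of ALS mutations, read 6661, 5399 and 6082 in controls and 6889.8, 7571 and 7048 in mutants (0.25 ± 0.12 (SE), adjusted p = 0.34). Its dimmer probe set 1435304_at changed by -0.0092. None of 16 tested genes of familial ALS was called by its brightest probe set, and Chchd10 was called in a dimmer one (0.53 ± 0.11 (SE), adjusted p = 0.0158; 0.179). No member was called among 34 proteasome, 18 ER stress or 17 interferon and antigen presentation genes. Of 25 tested chaperones none was called by the brightest probe set, while Hspa4, Hsp90aa1 and Dnajc3 each had a dimmer one that was, at 0.95, 0.53 and 0.52. Without the 2 arrays only that of Hspa4 was called (adjusted p = 0.0225, 0.0617 and 0.0664). Among 20 antioxidant enzymes Gclc, the catalytic subunit of the first step of glutathione synthesis, was called. It read 557, 645 and 504 in controls and 1024, 789 and 957 in mutants (0.67 ± 0.13 (SE), adjusted p = 0.0116; 0.0396 without the 2 arrays).

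The same contrast in cervical spinal cord used separate arrays, and the labels do not say whether the animals were the same. There 3 probe sets were called (0.0221% of those tested), Commd1 1424122_s_at, Pja2 1424442_a_at and Celf4 1426929_at, and all 3 were also called in oculomotor nucleus in the same direction. Commd1 read 387 and 416 on the 2 control cord arrays and 1246, 1174 and 1058 on the mutant cord arrays (1.47 ± 0.20 (SE), adjusted p = 0.00717). Pja2 1424442_a_at changed by 0.81 ± 0.12 (SE) (adjusted p = 0.013). Celf4, an RNA-binding protein of neurons, changed by -0.72 ± 0.12 (SE) in cord (adjusted p = 0.033) and by -0.51 ± 0.10 (SE) in oculomotor nucleus (adjusted p = 0.0197; 0.0947), with 2 other probe sets not called in either region.

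Most called probe sets had the same sign in cord. Of the 200, 186 did (93.0%), against 60.4% of all tested probe sets. Malat1 1438403_s_at read 418 and 212 in control cord and 719.7, 2115 and 3171 in mutant cord, a change of 2.41 ± 0.52 (SE) that was not called (adjusted p = 0.0991). Tac2 was high in cord in both genotypes, at 1127 and 1583 in controls and 1689, 1142 and 1076 in mutants, and its change there was -0.065 ± 0.37 (SE) against -1.78 in oculomotor nucleus. The test of the difference between regions called 0 of 13575 probe sets in limma, with 835 at an unadjusted p under 0.05 and a smallest adjusted p of 0.391. No gene is therefore shown to differ between the 2 regions, Tac2 included.

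Younger mutants can only be set beside the 10-week groups. Both comparisons share arrays with the one above, and the 6-week mutants differ from the controls in age as well as genotype. Tac2 read 82.7, 186 and 70.4 and Commd1 759, 1076 and 997 in the 6-week mutants, and Cbl 1455886_at 329, 486 and 414. The Tac2 array at 186 lay above the 10-week mutants and the lowest control, while all 6-week arrays of Commd1 and Cbl lay above the control arrays. Lrrtm1 1452624_at read 312, 259 and 166, from the level of the older mutants to near the lowest control. Between mutants of 10 and 6 weeks 3 probe sets were called (0.0221%), all higher at 10 weeks. They were Slc6a4, the neuropeptide precursor Cartpt and the lipid transporter Abca8a. Cartpt read 3164, 3901 and 3729 in controls, 4526, 5668 and 5148 in 10-week mutants and 2466, 1984 and 3508 in 6-week mutants, and its genotype difference at 10 weeks was not called (0.50 ± 0.15 (SE), adjusted p = 0.102).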

How the data were processed

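Biotinylated cRNA of dissected tissue was read on Affymetrix 430A arrays, according to the series' design text. Each deposited intensity is a Microarray Suite 5.0 signal of the authors, on a linear scale with a 2% trimmed mean close to 500 on each array used. No further normalization was applied.

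After removal of control probe sets, log2(signal + 25) was used throughout. A filter removed the dimmest 40% by mean signal (limit 7.38 in log2) and kept 13575. Of all probe sets, 20380 had 1 gene symbol, 691 several and 1555 none, and symbols were updated through a RefSeq gene table for GRCm38.p6, used for names only. Means of the 6 groups were fitted over 17 arrays in limma 3.58.1 (R 4.3.3; eBayes with a trend on mean signal, 11 residual degrees of freedom), with Benjamini-Hochberg adjustment within each contrast. The steps were tested on simulated data. The number of arrays limits the precision.

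Genes were named by a rule: the 15 largest rises and 15 largest falls among called genes, the 5 marker genes given for the comparison, up to 3 genes of smallest p in each of 40 lists, genes with every tested probe set called in 1 direction, the 5 genes with the widest disagreement between probe sets, and Sod1, Gh and Prl. Probe sets of called genes from the counts over probe sets and lists were named after their values were seen. In lists, a gene is represented by its tested probe set with the highest mean signal. The comparison, its members, lists and tests were chosen with earlier results of these data known. Same-numbered mutant and control arrays did not deviate together (correlations of -0.003, -0.09 and 0.069), so numbers were not used as pairs. Alternatives covered scaling, the offset, the filter, the model, the arrays fitted and leaving out each array. The submitters' detection calls, which rest on single probes, were not used here.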

Additional observations from a re-analysis of the deposited data

Results flagged for a closer look

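In 3 genes of the lists the mutant arrays were separated from the control arrays in opposite directions in the 2 regions. Nr4a2, a transcription factor of dopamine neurons, was -0.49 in oculomotor nucleus and 0.45 in cervical spinal cord in 1450750_a_at, a difference of -0.93 (adjusted p of the interaction in limma 0.668). Vim, an intermediate filament of glia and vessels, was -0.40 and 0.30 in 1456292_a_at, a difference of -0.69 (adjusted p = 0.734 in limma). Ier2, an immediate early gene, was -0.28 and 0.25 in 1416442_at, a difference of -0.53 (adjusted p = 0.747 in limma). None of the 3 differences passed the test, and control spinal cord had 2 arrays.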

How the results depend on the processing

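The count of 200 called probe sets in oculomotor nucleus was 392 when the 6 arrays were fitted alone, 118 with no filter on low signal, 62 with 1 probe set per gene, 57 without both arrays with high Gh and Prl, 35 under a rule of the submitters' kind (all 9 pairwise comparisons in 1 direction and a mean change of 2-fold), 30 with a 2-fold threshold, and 1 when control spinal cord replicate 1 was kept in the fit. Leaving out 1 array gave 47 to 108 calls. Quantile normalization gave 151, of which 142 were among the 200, and cyclic loess gave 150. The replicate block, fitted on the 6 arrays although numbers did not pair them, gave 201 calls, of which 124 were shared. In spinal cord the count of 3 was 5 with no filter and 0 with all 18 arrays. The test between regions called 0 under every alternative run for it. Of 60 called probe sets named by rule, 59 kept their sign under every alternative, 15 lost the call with quantile normalization and 37 without both arrays with high Gh and Prl. The sign turned in Mbp 1433532_a_at, from 0.45 to -0.0076 with quantile normalization. The causes of these changes were not tested. Dim probe sets limit the size of a change, since the offset draws it toward 0.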
